A study of Mus musculus with 9 samples.

Results

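Small nucleolar RNA (snoRNA) genes were taken as all genes whose symbol starts with Snora, for the H/ACA box class, or with Snord, for the C/D box class. A gene was a member when at least 1 array row mapped to its symbol alone. By that rule 51 of the 19937 named genes were members, 20 of the H/ACA class and 31 of the C/D class. They lay on 53 array rows, because Snora21 and Snora3 had 2 rows each. A gene's main row is the one that averaged highest across the 9 arrays, and it stands for the gene. A further 18 snoRNA symbols appeared only on 22 rows shared with another gene and are described apart.

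RNA from mouse cells on the way to induced pluripotency was read on an Affymetrix whole-transcript array, 3 arrays per stage. All cells carried the strain label OG2-GFP/Rosa26-M2rtTA. The fibroblasts came from mice made with TSKM-iPS cells and were at passage 4. The TSKM-3D cells were fibroblasts of the same kind at passage 4 that had received doxycycline for 3 days, which switches on Tet1, Sox2, Klf4 and c-Myc. Induction coincided with a switch of medium, to one for embryonic stem cells containing LIF, so that comparison holds both changes. The iPS cells were a line made with the same 4 factors, at passages 10 to 15. They grew on mitomycin C-treated embryonic feeder cells, which were removed by plating for 0.5 h before collection. The labels do not say whether the arrays of a stage came from separate cultures, so the spread behind every p-value is that of arrays and may be technical. They also name no batch, so any technical difference between stages cannot be told apart from the stage itself. On 16 low-numbered array rows without a gene name, the median log2 difference of TSKM-3D over fibroblasts was 1.64 (range 0.48 to 3.58). It was 1.89 (-0.10 to 4.08) in iPS over fibroblasts and 0.19 (-0.78 to 0.50) in iPS over TSKM-3D. What these rows measure is not known here, and the reason for their shift was not tested. The label for cell type calls the third fibroblast array induced, while its title, source and passage name fibroblasts, and it was kept with the fibroblasts.

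snoRNAs are short nuclear RNAs that pair with ribosomal RNA (rRNA) and guide its chemical modification. H/ACA snoRNAs direct the conversion of uridine to pseudouridine, and C/D snoRNAs direct methylation of the ribose. A few instead take part in cutting the rRNA precursor. In mammals most snoRNAs are trimmed out of introns of a host gene after splicing, and ribosome synthesis is known to be high in growing pluripotent cells. A row placed within a snoRNA gene does not separate the mature RNA from unspliced host transcript. In bulk RNA, a change in the RNA per cell and a change in the share of cells that hold it cannot be told apart.

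Host genes were assigned by position: 50 of the 51 members lay inside a longer gene, and Snord118 lay in none. The 50 members had 40 different hosts, and 10 hosts held several members. The hosts were Rpl or Rps ribosomal protein genes for 21 members, long noncoding RNA genes for 13 and other protein-coding genes for 16. H/ACA members had a median length of 125 bases (range 61 to 205), and C/D members of 68 bases (range 45 to 148).

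Several of these loci also make an annotated microRNA hairpin from the same bases, and 3 of the 4 such hairpins found belong to rows that carry both names. The hairpins are printed from RefSeq (GRCm38.p6), 5′ to 3′, with the bases that lie inside the annotated snoRNA in capitals. The order is Mir664 at chr1:185242975-185243043 (+) over Snora36b, Mir5121 at chr7:45126918-45126991 (-) over Snord33, Mir1291 at chr15:98519762-98519878 (-) over Snora34, and Mir3084-2 at chr19:60774329-60774397 (-) over Snora19.
Mir664 and Snora36b: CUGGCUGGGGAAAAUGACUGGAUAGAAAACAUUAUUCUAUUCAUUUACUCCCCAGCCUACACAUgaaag
Mir5121 and Snord33: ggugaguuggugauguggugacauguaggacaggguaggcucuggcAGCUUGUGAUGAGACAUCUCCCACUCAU
Mir1291 and Snora34: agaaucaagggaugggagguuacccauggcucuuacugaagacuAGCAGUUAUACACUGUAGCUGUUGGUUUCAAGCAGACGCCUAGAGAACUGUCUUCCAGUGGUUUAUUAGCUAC
Mir3084-2 and Snora19: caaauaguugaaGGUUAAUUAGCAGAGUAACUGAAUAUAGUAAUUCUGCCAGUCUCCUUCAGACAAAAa
In Snora36b and Snora19 the capitals end with the ACA that names the class, followed by 3 more bases. In Snord33 the capitals hold UGAUGA, the core of box C, from base 7 of the snoRNA. The overlap covers 64 bases in Snora36b, 28 in Snord33, 73 in Snora34 and 56 in Snora19, so signal from those bases need not come from the snoRNA alone. The row of Snord33 carries only its symbol in the probe table and was kept as a member with that limit.

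A pair of host promoters is shown as examples that hold a given motif. They are those of Rpl23, host of Snora21, and Rpl13a, host of Snord33 and Snord35a. Each runs from 250 bases before to 20 bases after the annotated start (RefSeq, GRCm38.p6), at chr11:97782420-97782689 (-) for Rpl23 and chr7:45128726-45128995 (-) for Rpl13a. Capitals mark CACGTG, the E-box letters bound by the MYC family, to which the introduced factor c-Myc belongs.
Rpl23: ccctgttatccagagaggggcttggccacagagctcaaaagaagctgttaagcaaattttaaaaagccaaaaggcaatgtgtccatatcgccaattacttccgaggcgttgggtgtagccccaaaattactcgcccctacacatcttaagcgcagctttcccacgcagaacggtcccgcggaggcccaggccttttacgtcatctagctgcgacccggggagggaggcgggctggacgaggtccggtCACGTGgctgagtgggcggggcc
Rpl13a: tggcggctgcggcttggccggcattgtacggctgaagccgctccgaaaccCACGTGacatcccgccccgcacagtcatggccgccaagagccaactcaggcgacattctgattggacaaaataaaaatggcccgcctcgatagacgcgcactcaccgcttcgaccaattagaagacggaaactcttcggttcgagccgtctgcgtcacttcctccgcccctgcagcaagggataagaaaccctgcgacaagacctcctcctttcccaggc
The motif began 3 bases before the start of Rpl23, at position -3, and at position -200 in Rpl13a. It reads the same on both strands. In windows of 250 bases before to 50 after the start, it was present in 6 of 30 host genes with an entry (20%) and in 2187 of 27025 genes (8.09%). Both promoters shown are among those 6, so the pair does not represent the hosts in general. These are letter matches and no measure of binding.

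Across all rows, array values correlated at 0.995 to 0.996 within fibroblasts, 0.983 to 0.991 within TSKM-3D and 0.989 to 0.991 within iPS. The third fibroblast array correlated at 0.989 to 0.992 with the other fibroblast arrays over the snoRNA genes, and at 0.675 to 0.680 with the TSKM-3D arrays. The mean of 8 fibroblast markers was 11.61 to 11.68 on fibroblast arrays, 9.58 to 9.69 on TSKM-3D arrays and 8.64 to 8.82 on iPS arrays (log2 values). The mean of 8 pluripotency markers was 5.09 to 5.22, 5.28 to 5.66 and 11.23 to 11.26 in the same order of stages. The mean of 7 macrophage markers, tested because fibroblast cultures can hold such cells, was 6.95 to 7.08, 5.56 to 5.66 and 6.02 to 6.05. In TSKM-3D cells over fibroblasts 5 of 8 fibroblast and 3 of 7 macrophage markers fell, and 1 of 8 pluripotency markers rose (Pou5f1). In iPS over TSKM-3D cells all 8 pluripotency markers rose, 4 fibroblast markers fell and 1 rose, and 1 macrophage marker rose. The part of these shifts in the snoRNA results was not tested.

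The median snoRNA value was 7.44 to 7.72 on the fibroblast arrays, 7.03 to 7.29 on the TSKM-3D arrays and 8.64 to 8.72 on the iPS arrays. The iPS arrays thus stood above all others, and the TSKM-3D arrays lay slightly below the fibroblast arrays. Over all 34760 rows the array medians were 6.01 to 6.23. The highest mean values over the 9 arrays were those of Snora52 (10.68), Snord49b (10.58), Snord57 (10.14), Snora73b (9.91) and Snora73a (9.71), and the lowest those of Snord61 (3.84), Snord38a (5.10), Snord85 (5.38), Snord118 (5.49) and Snora2b (5.54). These values depend on each row's probes, and no order of abundance is read from them. The median SD between arrays of a stage was 0.15 in fibroblasts, 0.19 in TSKM-3D and 0.13 in iPS for the snoRNA genes.

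**Figure D1:**
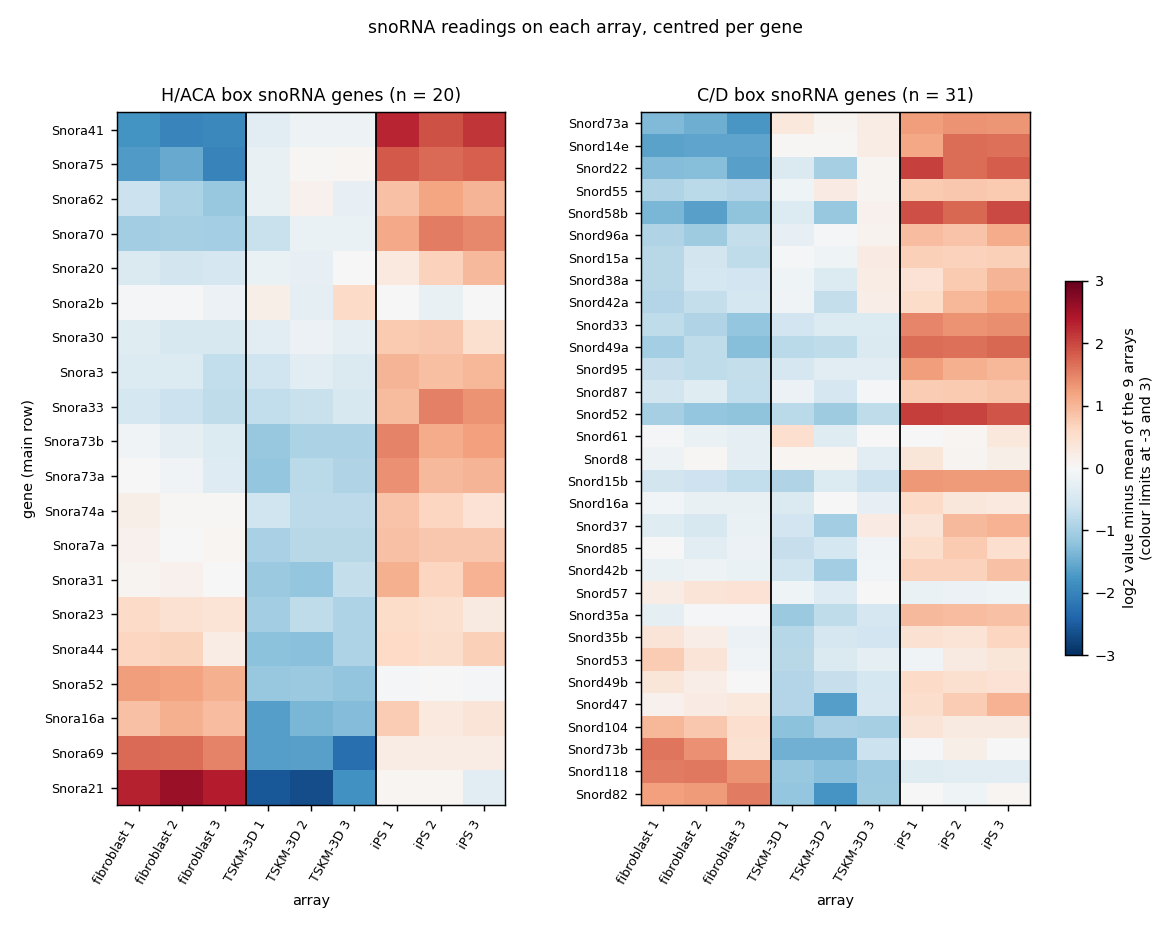
Log2 value of each snoRNA gene's main row on each array (columns, by stage), minus the gene's mean over the 9 arrays, for the 20 H/ACA genes (left) and the 31 C/D genes (right), ordered by the TSKM-3D minus fibroblast difference. Colours are limited at -3 and 3; the iPS columns are mostly red, while the TSKM-3D columns run from near white at the top to blue at the bottom.

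The first comparison asks what had changed by day 3 of induction. Calls required at least a 2-fold change and a limma p under 0.05 after Benjamini-Hochberg adjustment over all rows. In TSKM-3D cells against fibroblasts 4 snoRNA genes rose (7.84%, against 4.09% of all rows) and 12 fell (23.5%, against 6.23% of all rows). The median log2 difference of the 51 genes was -0.02, and that of all rows 0.07. Single genes spread widely around it, over a range of -4.76 to 1.71. Of the H/ACA genes 2 rose and 7 of 20 fell, with a median of -0.77. Of the C/D genes 2 rose and 5 of 31 fell, with a median of 0.05. The difference between the classes was not tested.

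The gene with the lowest difference was Snora21, an H/ACA RNA from an intron of Rpl23. Its main row read 6.17, 6.05 and 6.89 on the TSKM-3D arrays, against 11.01, 11.30 and 11.07 on the fibroblast arrays. Snora21 thus fell by 4.76 ± 0.21 (SE) on the log2 scale, a 27.1-fold drop (limma, adjusted p = 6.67e-07). Snora69, from an intron of Rpl39, read 5.18, 5.19 and 4.57 in TSKM-3D cells, against 8.54, 8.51 and 8.32 in fibroblasts. Every TSKM-3D array lay below every fibroblast array for both genes, and Snora69 fell by 3.48 ± 0.16 (11.2-fold, adjusted p = 7.41e-07).

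Snord118 is required for maturation of the large-subunit rRNA in frog oocytes. It read 4.36, 4.23 and 4.39 in TSKM-3D cells, against 7.04, 7.08 and 6.83 in fibroblasts, without overlap. It fell by 2.66 ± 0.09 (6.32-fold, limma adjusted p = 1.65e-07). Snora52, in Rplp2, read 9.55, 9.56 and 9.50 on TSKM-3D arrays, against 11.92, 11.88 and 11.75 on fibroblast arrays. The arrays of each stage lay close together, and Snora52 fell by 2.31 ± 0.07.

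Both H/ACA genes of the noncoding host Snhg12 fell. Snora16a read 7.34, 7.63 and 7.69 in TSKM-3D cells, against 9.86, 10.05 and 9.92 in fibroblasts. Snora44 read 6.77, 6.75 and 7.07, against 8.63, 8.66 and 8.22. Their log2 differences were -2.39 ± 0.14 and -1.64 ± 0.14. The other genes that fell were Snord82 (-2.68), Snord73b (-2.32), Snord104 (-1.85, in the noncoding host Gm36220), Snora23 (-1.39, in Ipo7), Snord47 (-1.24, in Gas5) and Snora31 (-1.07, in Tpt1).

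The 4 genes that rose had similar sizes of change. Snora41, in the elongation factor gene Eef1b2, read 6.40, 6.58 and 6.58 on TSKM-3D arrays, against 4.94, 4.76 and 4.81 on fibroblast arrays. Snord14e, in the chaperone gene Hspa8, read 8.94, 8.94 and 9.11, against 7.28, 7.31 and 7.31. Neither gene overlapped between stages. The log2 differences were 1.68 ± 0.11 for Snora41 (limma, adjusted p = 4.66e-06) and 1.70 ± 0.14 for Snord14e (adjusted p = 1.56e-05). Snora75 and Snord73a, with 1.68 and 1.71, are described with their hosts. On adjusted p alone, with no fold requirement, 13 genes were higher and 21 lower. Of all 34760 rows, 12538 passed that threshold, in either direction. With the third fibroblast array placed among the TSKM-3D arrays, as its cell type label has it, 0 genes were called by limma in either direction, and 2 higher and 10 lower had an unadjusted p under 0.05 and at least 2-fold. Shares of all rows were not counted for that placement.

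Some introns of 1 host gave opposite readings. In Ncl, the gene of nucleolin, Snora75 read 7.01, 7.26 and 7.28 on TSKM-3D arrays, against 5.54, 5.73 and 5.24 on fibroblast arrays. Snord82 of the same gene read 7.10, 6.50 and 7.19, against 9.49, 9.53 and 9.82. Snora75 therefore rose (1.68 ± 0.13) while Snord82 fell (-2.68 ± 0.18), and the Ncl row itself had a difference of 0.87 and was not called.

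The ribosomal protein gene Rps3a1 showed the same split. Snord73a read 6.61, 6.38 and 6.52 on TSKM-3D arrays, against 4.99, 4.84 and 4.55 on fibroblast arrays. Snord73b read 6.49, 6.51 and 7.29, against 9.54, 9.32 and 8.40, with the third array of each stage apart from its partners. Snord73a rose by 1.71 ± 0.12 and Snord73b fell (-2.32 ± 0.31), while the Rps3a1 row was not called (0.51). By its number that row lies far from both and may not read their locus.

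**Figure D2:**
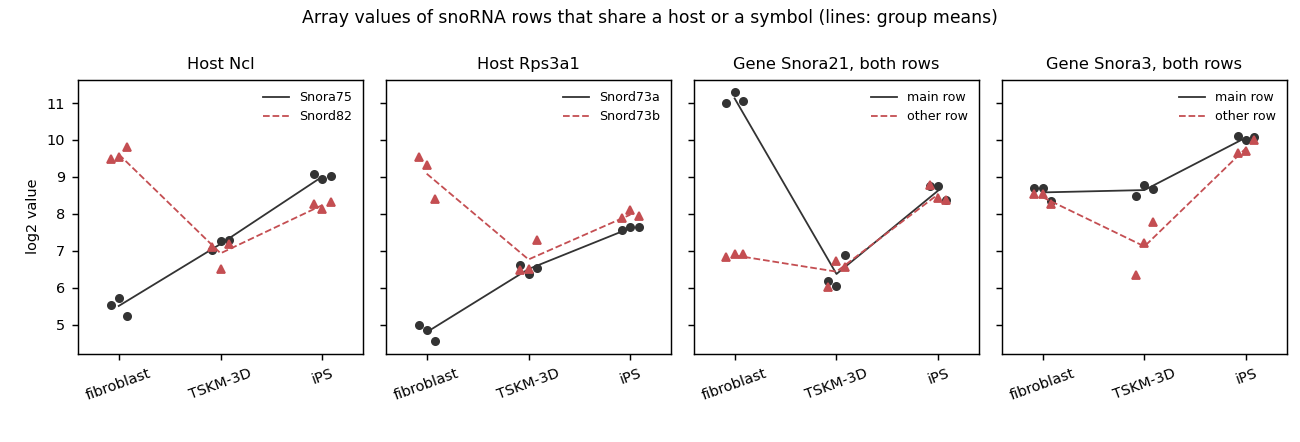
Log2 values on each array by stage (points, 3 per stage; lines join the stage means) for snoRNA pairs of the hosts Ncl and Rps3a1 and for both rows of Snora21 and Snora3. In Ncl and Rps3a1 one snoRNA is higher and the other lower in TSKM-3D cells than in fibroblasts; levels of different rows depend on their probes and are not compared.

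Rows of 1 gene did not always move alike. The other row of Snora21 read 6.03, 6.71 and 6.56 in TSKM-3D cells, against 6.82, 6.90 and 6.90 in fibroblasts. Its log2 difference of -0.44 was not called (limma, adjusted p = 0.0865), whereas the main row fell by 4.76. Snora3, in Rpl27a, had the converse pattern. Its main row read 8.49, 8.78 and 8.66 in TSKM-3D cells, against 8.69, 8.69 and 8.36 in fibroblasts, and was not called (0.06). Its other row read 6.34, 7.22 and 7.79, against 8.54, 8.55 and 8.26, and fell by 1.33 ± 0.31 (adjusted p = 0.00855). Which row follows the mature RNA was not tested.

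The second comparison asks what separated the established line from the day-3 cells. In iPS cells against TSKM-3D cells 39 of 51 snoRNA genes rose (76.5%, against 6.99% of all rows) and 0 fell (against 6.17% of all rows). At an unadjusted p under 0.05 limma found 47 genes higher and 0 lower. Of all 34760 rows, 15042 had such a p, in either direction. The median log2 difference was 1.34, and that of all rows 0.02. The difference was above 0 for 50 genes and below 0 for 1, against 18236 above and 16519 below among all rows. Of the H/ACA genes 17 of 20 rose (median 1.74), and of the C/D genes 22 of 31 (median 1.20). When the test asked for a change beyond 2-fold, 21 genes were called higher. The share of all rows under that rule was not counted, so the 21 can be set only beside the 39 above.

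Snord52, a C/D RNA of the noncoding host 1110038B12Rik, had the highest difference. It read 9.52, 9.49 and 9.33 on iPS arrays, against 6.65, 6.38 and 6.69 on TSKM-3D arrays. The stages lay far apart, and Snord52 rose by 2.87 ± 0.11 (7.32-fold, limma adjusted p = 1.11e-07). Snord49a, in the noncoding host 2410006H16Rik, read 10.42, 10.39 and 10.46 in iPS cells, against 7.92, 7.98 and 8.29 in TSKM-3D cells. It rose by 2.36 ± 0.14, while Snord49b of the same host rose by 1.20 ± 0.12.

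Snord58b, in Rpl17, read 7.81, 7.60 and 7.84 in iPS cells, against 5.45, 4.74 and 5.99 in TSKM-3D cells. The TSKM-3D arrays differed among themselves (SD 0.63) but all lay below the iPS arrays, and the difference was 2.36 ± 0.27. Snora41 read 9.01, 8.64 and 8.88 in iPS cells, against 6.40, 6.58 and 6.58 in TSKM-3D cells. It rose by 2.32 ± 0.11 (5.01-fold, limma adjusted p = 4.43e-07).

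This comparison shares the TSKM-3D arrays with the first, so for the genes that fell at day 3 the values are set side by side only. Snora21 read 8.76, 8.76 and 8.38 on iPS arrays, against 6.17, 6.05 and 6.89 on TSKM-3D arrays, a rise of 2.27 ± 0.21. Here its rows went the same way, with 2.10 on the other row. Snora69 read 7.05, 7.05 and 7.06 in iPS cells and rose by 2.08 ± 0.16 over TSKM-3D cells. Snora16a (1.92), Snora31 (1.92), Snord47 (1.79), Snora44 (1.75), Snord104 (1.38) and Snora23 (1.34) rose as well. Snord82 (1.30), Snord73b (1.21) and Snora52 (1.11) rose by less, and Snord118 was not called (0.83).

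The 12 genes not called were Snora30 (0.94), Snord38a (0.86), Snord118 (0.83), Snora20 (0.80), Snord55 (0.73), Snord53 (0.69), Snord15a (0.68), Snord16a (0.64), Snord8 (0.27), Snord61 (0.07), Snord57 (0.02) and Snora2b (-0.23). Of these 12, 8 had an adjusted p under 0.05 (limma) and missed only the fold requirement. Snord57, in an intron of the C/D core protein gene Nop56, averaged 9.98 ± 0.04 on iPS arrays and 9.96 ± 0.19 on TSKM-3D arrays (SD, n = 3 each). These arrays overlapped. Snord15a and Snord15b, both from Rps3, read differently: the difference was 0.68 ± 0.12 for Snord15a and 1.94 ± 0.12 for Snord15b.

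**Figure D3:**
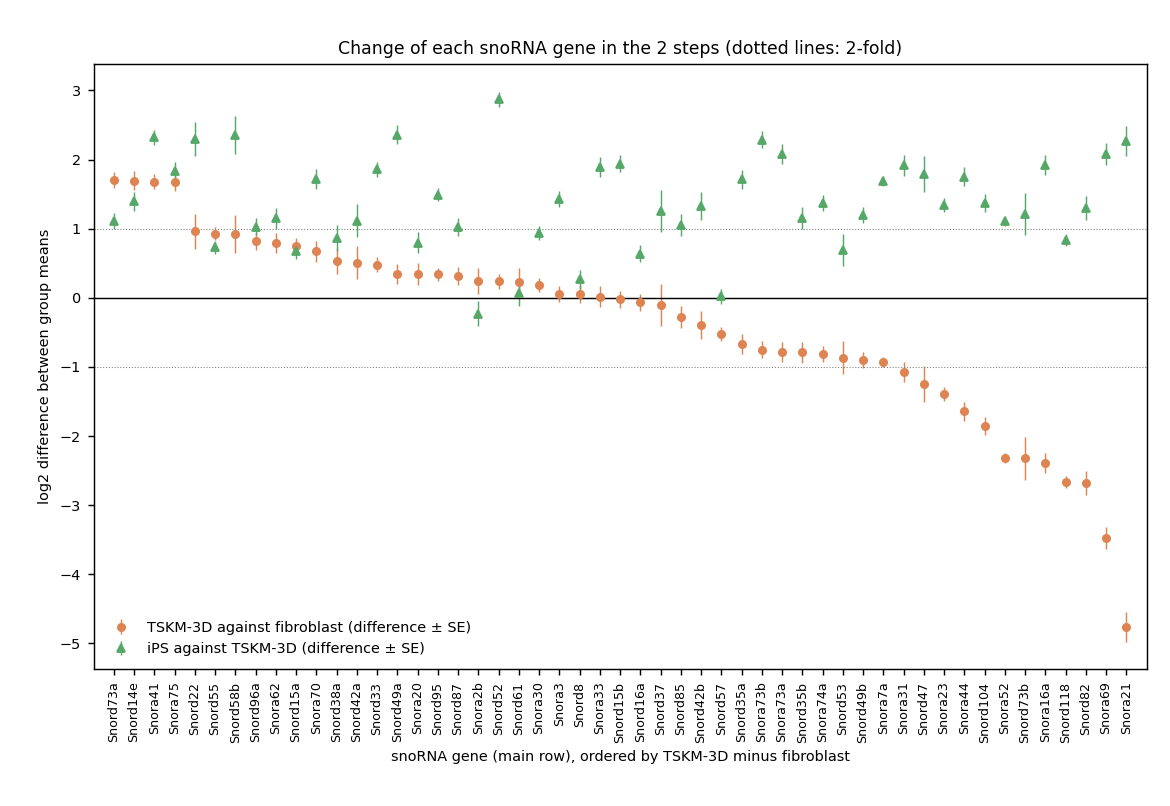
Log2 difference (± SE) of each of the 51 snoRNA genes between TSKM-3D and fibroblasts (circles) and between iPS and TSKM-3D (triangles), ordered by the circles; dotted lines mark 2-fold. The circles run from 1.71 down to -4.76, while all triangles but that of Snora2b (-0.23) lie above 0; both differences use the TSKM-3D arrays.

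The third comparison spans both steps and shares its arrays with the others. In iPS cells against fibroblasts 27 genes rose (52.9%, against 9.68% of all rows) and 6 fell (11.8%, against 10.3% of all rows). The share that fell was thus near that of all rows. The median log2 difference was 1.12, and that of all rows 0.09, over a range of -2.49 to 4.01. The H/ACA genes held 10 that rose and 3 that fell, and the C/D genes 17 and 3.

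Snora41 read 9.01, 8.64 and 8.88 on iPS arrays, against 4.94, 4.76 and 4.81 on fibroblast arrays. It rose by 4.01 ± 0.11 (16.1-fold, limma adjusted p = 1.32e-08). Snora75 read 9.08, 8.93 and 9.02 in iPS cells, against 5.54, 5.73 and 5.24 in fibroblasts. With no overlap in either gene, Snora75 rose by 3.50 ± 0.13 (11.3-fold). Snord58b (3.28), Snord22 (3.26), Snord52 (3.11), Snord14e (3.09), Snord73a (2.82), Snord49a (2.71), Snora70 (2.39, in Rpl10) and Snord33 (2.34) followed. Snord33, whose first bases are shared with Mir5121 in the sequence printed above, read 9.96, 9.86 and 9.90 in iPS cells, against 7.75, 7.61 and 7.35 in fibroblasts.

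The 6 genes that fell were Snora21 (-2.49 ± 0.21), Snord118 (-1.83 ± 0.09), Snora69 (-1.41 ± 0.16), Snord82 (-1.38 ± 0.18), Snora52 (-1.21 ± 0.07) and Snord73b (-1.11 ± 0.31). Snord118 read 5.12, 5.17 and 5.17 on iPS arrays, against 7.04, 7.08 and 6.83 on fibroblast arrays. The direction for Snora21 rested on its main row, since its other row read 8.78, 8.44 and 8.38 in iPS cells, against 6.82, 6.90 and 6.90 in fibroblasts, a rise of 1.66 ± 0.18 (limma, adjusted p = 4.64e-05). With the mean of both rows Snora21 had a difference of -0.42 (adjusted p = 0.0619). The Snord73b call was lost without fibroblast replicate 1 (-0.88) or replicate 2 (-0.99). A test beyond 2-fold called 2 of these genes lower. With the third fibroblast array moved to TSKM-3D limma called 0 lower, and 2 at an unadjusted p under 0.05 and at least 2-fold. Shares of all rows were counted neither for that test nor for that placement.

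Among snoRNAs known for precursor cutting, those tied to the small-subunit rRNA are Snord14, Snord22 and Snora73. Snora73a and Snora73b, a pair of like sequence in the host Snhg3, read 10.68 to 11.09 and 11.03 to 11.39 on iPS arrays, against 8.56 to 8.91 and 8.77 to 8.97 on TSKM-3D arrays. They rose by 2.08 ± 0.15 and 2.29 ± 0.12, and differed by -0.78 and -0.75 between TSKM-3D cells and fibroblasts, under 2-fold. Signals of such near copies may not be separable on the array. Snord22, in the host Snhg1, read 9.46, 9.09 and 9.23 on iPS arrays, against 6.98, 6.41 and 7.50 on TSKM-3D arrays, and rose by 2.30 ± 0.25. Its difference between TSKM-3D cells and fibroblasts was 0.96 and was not called. Snord14e rose in TSKM-3D cells over fibroblasts (1.70) and in iPS cells over TSKM-3D cells (1.40). Snord118, tied to the large subunit, fell in TSKM-3D cells over fibroblasts and was not called in iPS over TSKM-3D cells (0.83 ± 0.09), so the cutting RNAs did not share 1 pattern.

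By host, the 13 members in noncoding hosts held 0 that rose and 4 that fell in TSKM-3D cells over fibroblasts, and 12 that rose in iPS cells over TSKM-3D cells. Of the 21 in Rpl or Rps hosts, 1 rose and 4 fell in the first step and 17 rose in the second. Of the 16 in other protein-coding hosts, 3 rose and 3 fell in the first and 10 rose in the second. Of all rows 4.09% rose and 6.23% fell in the first step, and 6.99% rose in the second. The 1 that rose in Rpl or Rps hosts (4.76%) was near that share, and 13 members are too few to read 0 as a trait. These are counts, and the host classes were not tested against each other.

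For 27 members the host had a named row of its own, and the host's main row is set beside the member here. That row is the host's brightest, and its position was not checked. Row numbers of the members mostly follow the chromosomes, and by number several host main rows lie far from the member. They include those of Rpl23, Rpl23a, Rps12, Rps3a1 and Hspa8, which may not read the locus that holds the snoRNA. In TSKM-3D cells over fibroblasts the host rows had a median difference of 0.51. All 4 genes that rose, among them Snora41 (host Eef1b2, -0.34), had a host whose main row was not called. Of the 7 that fell, 6 had a host main row that was not called and 1, Snord47, had a host that rose. The host of Snord47, Gas5, read 11.63, 11.86 and 11.75 in TSKM-3D cells, against 9.67, 9.77 and 9.66 in fibroblasts. Gas5 rose by 2.04 ± 0.09 (limma, adjusted p = 5.67e-07), while Snord47 read 6.72, 5.95 and 7.10, against 7.74, 7.84 and 7.93, and fell by 1.24 ± 0.26.

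In iPS cells over TSKM-3D cells 19 of the 27 paired members rose, and no main row of their hosts was called, with a median of 0.06 over the host main rows. Rpl23, the host of Snora21, had a difference of -0.12, and Rps3, the host of Snord15b, of 0.00. On main rows the 1 host called was Rbmx (-1.52), whose Snord61 was not called (0.07). In iPS cells over fibroblasts 14 members rose, 1 of them with its host's main row: Snora75 with Ncl (1.19). Snord82 fell there while Ncl rose, and Snora52 fell while Rplp2 rose (1.05). The Rplp2 row was dim, at 6.60 in fibroblasts and 7.65 in iPS cells, the lowest of the Rpl and Rps host main rows. It may therefore read its host poorly. Across the 27 pairs, which share arrays and hosts, Spearman's rho between member and host differences was -0.26 in TSKM-3D over fibroblasts, -0.03 in iPS over TSKM-3D and -0.20 in iPS over fibroblasts, given as a description.

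Other rows of the hosts did not all follow the main rows: 10 hosts had 41 further rows. In TSKM-3D over fibroblasts 4 of the 41 rose and 2 fell. All 3 further rows of Gas5 were among those that rose (2.54, 1.92 and 1.12), with 1 of 8 of Rpl27a (1.28), while 2 of 9 of Rpl23a fell (-1.40 and -2.66). The row with -1.40 is the Rpl23a row nearest in number to Snord42a and Snord42b. The rows nearest in number to the member were not called for Rpl23 (0.64), Rpsa (0.80), Hspa8 (0.31) and Tpt1 (-0.65). In iPS over TSKM-3D 4 of the 41 rose and 37 were not called. They were the 3 rows of Gas5 (1.75, 1.49 and 1.10), host of the risen Snord47, and 1 of 9 of Rpl23a (1.13), host of the risen Snord42a and Snord42b. The main row of Gas5 had -0.03 there, so whether Gas5 moved with Snord47 in this step depended on the row.

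In iPS over fibroblasts 11 of the 41 further rows rose and 2 fell. For hosts of risen members, 4 of 6 rows of Rps12 rose (1.26, 1.25, 1.21 and 1.11, host of Snora33) and 2 of 8 of Rpl27a (1.38 and 1.09, host of Snora3). In Rpl23a, host of Snord42a, 2 of 9 rose (1.25 and 1.23) and 1 fell (-2.37). The 3 rows of Gas5 rose (4.29, 3.42 and 2.23), and 1 of 3 of Tpt1 fell (-1.03). Which host row follows the transcript that carries the snoRNA was not tested.

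**Figure D4:**
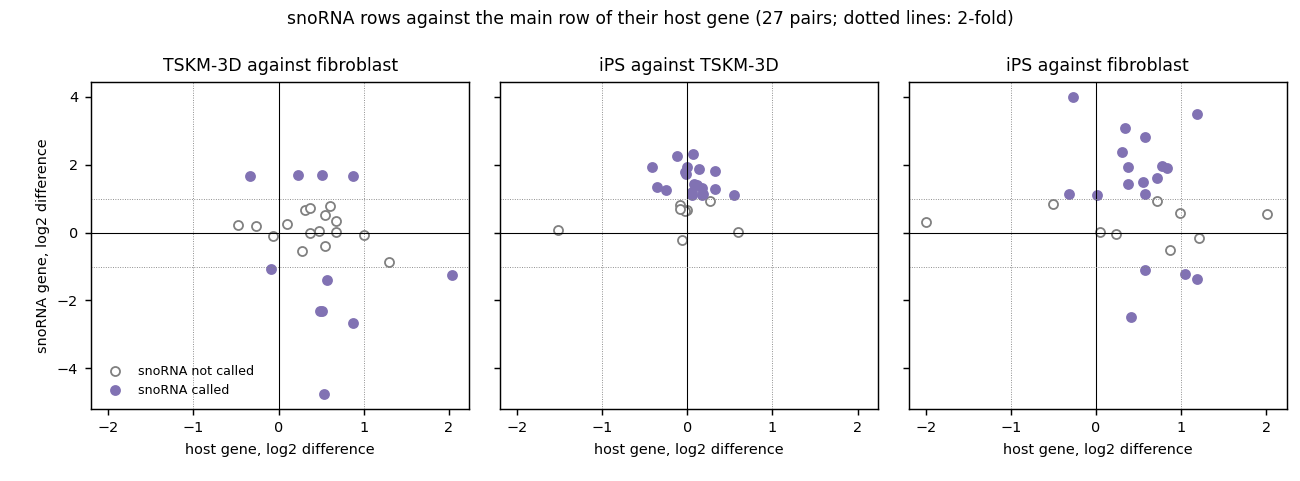
Log2 difference of the snoRNA row (vertical) against that of its host gene's main row (horizontal) for 27 pairs in 3 comparisons; filled points are snoRNAs called by the test, dotted lines mark 2-fold. In iPS against TSKM-3D the filled points lie high on the vertical axis while their host main rows stay between the 2-fold lines; the host Rbmx (-1.52), of the open point Snord61, lies outside them.

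The genes of proteins that bind snoRNAs are given by list, and their rows read RNA, not protein. Of all rows 4.09% rose in TSKM-3D over fibroblasts, 6.99% in iPS over TSKM-3D and 9.68% in iPS over fibroblasts. Of the 4 H/ACA core proteins, Nhp2 rose in TSKM-3D cells over fibroblasts (1.29). None was called in iPS over TSKM-3D cells, and Dkc1, the pseudouridine synthase (1.22), and Nhp2 (1.80) rose in iPS over fibroblasts. Of the 4 C/D core proteins, Nop58 rose in TSKM-3D over fibroblasts (1.56), none was called in iPS over TSKM-3D, and Nop58 (1.75) and Fbl, the methyltransferase fibrillarin (1.04), rose in iPS over fibroblasts. Nhp2 read 10.24, 10.24 and 10.26 on TSKM-3D arrays, against 9.06, 8.86 and 8.94 on fibroblast arrays. No gene of these core lists was called lower in any comparison.

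Of the H/ACA assembly factors, Shq1 rose in iPS over TSKM-3D (1.01) and over fibroblasts (1.95), and Naf1 was not called. Among 13 assembly and transport factors, Rpap3 (1.33) and the ATPase Ruvbl1 (1.17) rose in TSKM-3D over fibroblasts. Ruvbl1 read 9.72 and Ruvbl2 10.28 on all 3 TSKM-3D arrays, and such ties can make their p-values too low. Znhit3 (1.35) and Coil (1.31), the gene of the Cajal body protein coilin, rose in iPS over TSKM-3D. In iPS over fibroblasts 5 of the 13 rose: Znhit3 (2.02), Rpap3 (1.66), Ruvbl1 (1.60), Ruvbl2 (1.31) and Coil (1.25).

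Of 6 noncoding host genes with a row of their own, Gas5 and Snhg5 (1.52) rose in TSKM-3D over fibroblasts. On main rows Snhg16 (1.55) and Snhg5 (1.14) rose in iPS over TSKM-3D, and Gas5 was not called there, unlike its further rows. Snhg5 read 11.19, 10.78 and 10.95 on iPS arrays, against 9.86, 9.79 and 9.83 on TSKM-3D arrays. The main rows of Snhg11, Snhg15 and Snhg17 were not called in any comparison.

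The rows shared with other names give readings that cannot be assigned to 1 gene. The row of Snord1c and Snord1b, a pair in the host Snhg16, read 6.41, 5.60 and 6.64 on TSKM-3D arrays, against 4.42, 4.39 and 4.40 on fibroblast arrays. It rose by 1.81 ± 0.23 there and by 2.07 in iPS over TSKM-3D. The rows of Snord14c and Snord14d with Hspa8 rose by 1.75 and 1.82 in iPS over TSKM-3D, and 1 of them rose in TSKM-3D over fibroblasts (1.29). The row of Snora24 with Snhg8 rose by 2.41 in iPS over TSKM-3D, that of Snord68 with Rpl13 by 2.11, and that of Snora65 with Rpl12 by 2.09.

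Rpl13a showed another split within 1 host. Its members Snord33 and Snord35a differed by 0.48 and -0.67 in TSKM-3D over fibroblasts, and neither was called. The shared row of Snord32a with Rpl13a fell by 1.72 ± 0.18 and that of Snord34 with Rpl13a had -0.76. In iPS over TSKM-3D all 4 rose: Snord33 (1.86), Snord35a (1.71), Snord34 (1.60) and Snord32a (1.10).

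The row of Snora34 and Mir1291, whose shared bases are printed above, read 5.60, 5.53 and 6.16 in TSKM-3D cells, against 7.77, 7.84 and 7.67 in fibroblasts. It fell by 2.00 ± 0.16 and was not called in iPS over TSKM-3D (0.33). The row of Snora19 with Mir3084 rose in iPS over TSKM-3D (1.13), and the row of Snora36b with Mir664 was not called in any comparison.

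The imprinted Snord116 cluster, whose host is the long transcript Snhg14, was read by 7 rows that carry the names Snord116l1, Snord116l2 and Gm26504 together. In TSKM-3D over fibroblasts 4 of the 7 rose, by 3.20, 2.13, 1.47 and 1.15. The row with the highest difference read 6.62, 6.50 and 7.68 in TSKM-3D cells, against 3.75, 3.09 and 4.38 in fibroblasts. In iPS over TSKM-3D 2 of the 7 fell, by 1.62 and 1.54. That row read 5.50, 5.31 and 5.14 in iPS cells, so the direction there was opposite to that of the 39 members that rose. The copies are near-identical repeats and their rows are uncertain as readings of 1 gene.

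Length was set against the differences as a description. Across the 51 members Spearman's rho with length was -0.23 in TSKM-3D over fibroblasts, 0.22 in iPS over TSKM-3D and -0.10 in iPS over fibroblasts. The classes differ in length, and within them the values went apart. In the 20 H/ACA genes rho was -0.36, 0.24 and -0.20 in the same order of comparisons, and in the 31 C/D genes 0.04, -0.14 and -0.02. The 9 arrays limit the precision of every value here.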

How the data were processed

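The authors deposited log2 expression values for 34760 rows and 9 arrays, 3 per stage. How they were normalised is not given in the sources used here, and they were used as deposited. Rows were named by the platform's probe table: 21640 carried 1 symbol, 1321 several, and 11799 were not in the table and are unnamed here. limma 3.58.1 in R 4.3.3 (lmFit, contrasts.fit, eBayes) was fitted to all rows with the 3 stages sharing one spread, and Benjamini-Hochberg adjustment ran over all rows. Called genes had adjusted p under 0.05 and at least a 2-fold change. Tested on simulated data for TSKM-3D against fibroblasts over 34760 rows, it recovered 85% of rows set at a log2 change of 1.5 and 97% at 2, with 4 false calls. Hosts were the shortest RefSeq GRCm38.p6 gene that contains the snoRNA. The strand could not be used, and 3 members lay in several genes. The table served for names and containment only.

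Genes are named by rule: per comparison up to 10 largest rises and falls among called members whose arrays do not overlap, genes with several rows, highest and lowest means, rRNA processing and imprinted families, hosts and the protein lists. Other members are given to complete a count. The members and lists were chosen with earlier results of these data known. Of the members' 153 sets of 3 values, 6 held tied values, which can make p-values too low. Same-numbered arrays did not deviate together (r -0.0735 to 0.0486), so no pairing was used. Alternatives changed the normalisation, filter, rows, spread estimate, fold rule, the group of the fibroblast array with the conflicting label and each replicate.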

Additional observations from a re-analysis of the deposited data

How the results depend on the processing

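Single genes were checked only for the up to 10 largest rises and falls per comparison among called members without overlap. They were chosen for large changes in these same data, so keeping sign and call was likely from the start. None changed sign under any alternative, and 765 of 796 such checks kept their call. Snord118 and Snord58b were not checked under the filter on means under 6, which removed them. Called members with smaller changes were not checked singly. Of the 31 lost calls, 22 came from moving the fibroblast array with the conflicting label, 5 from testing beyond 2-fold, 3 were Snord73b and 1 was Snora21 with its rows averaged. The median near 0 in TSKM-3D over fibroblasts took either sign. With array medians set equal, which shifts every row by -0.05 (TSKM-3D over fibroblasts), -0.12 (iPS over TSKM-3D) and -0.17 (iPS over fibroblasts), the member medians were 1.23 in iPS over TSKM-3D and 0.95 in iPS over fibroblasts. Testing beyond 2-fold left 21 genes higher in iPS over TSKM-3D and 2 lower in iPS over fibroblasts. Adjusted p alone gave 13 higher and 21 lower in TSKM-3D over fibroblasts, while 12538 of all 34760 rows passed it in either direction. Placing the third fibroblast array with TSKM-3D gave 0 higher and 0 lower there, a median of 1.20 and 30 higher in iPS over TSKM-3D, and 27 higher and 0 lower in iPS over fibroblasts. The cause was not tested. With quantile normalisation Snord73b in iPS over fibroblasts was -0.95 and not called. Leaving out each array in turn gave 4 to 6 higher, 10 to 13 lower and a median of -0.06 to 0.02 in TSKM-3D over fibroblasts. It gave 36 to 40 higher, 0 lower and 1.32 to 1.44 in iPS over TSKM-3D, and 26 to 27 higher, 5 to 6 lower and 1.03 to 1.14 in iPS over fibroblasts. With the replicate number as a block the counts were again 4 and 12, 39 and 0, and 27 and 6. The array numbers do not pair the samples, so this says little. With 3 arrays per stage, dim rows such as Snord61 (3.84) carry little information on change.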

Other observations

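Other small RNA genes, a list of 15 chosen after their values were seen, are given as values. In TSKM-3D cells over fibroblasts 6 of the 15 fell and 1 rose, while 6.23% of all rows fell and 4.09% rose. Rny3, a Y RNA of the Ro particle, read 9.25, 9.68 and 9.27 on TSKM-3D arrays, against 13.12, 13.05 and 12.74 on fibroblast arrays, and fell by 3.57 ± 0.16 (limma, adjusted p = 6.12e-07). Rny1 read 5.04, 4.14 and 4.36, against 7.48, 7.84 and 6.95, and fell by 2.91. Rnu3a, a gene of the snoRNA that starts cutting of the rRNA precursor but whose symbol is outside the rule, read 5.51, 5.42 and 5.09, against 7.98, 7.93 and 7.66, and fell by 2.52. Vaultrc5, a vault RNA (-2.27), the Cajal body RNA Scarna13 (-1.91) and the telomerase RNA Terc (-1.34) fell too, while Scarna17 rose (1.36). In iPS over TSKM-3D cells Rny1 (2.26), Rny3 (1.97) and Rnu3a (1.62) rose and 0 of the 15 fell. Of all rows 6.99% rose and 6.17% fell in that comparison. In iPS over fibroblasts 1 of the 15 rose, Scarna17 (1.03), and 3 fell: Rny3 (-1.60), Scarna13 (-1.69) and Vaultrc5 (-1.55). Of all rows 9.68% rose and 10.3% fell there.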
